A study of Danio rerio with 2 samples.

Results

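The cells described here carried *sst1.1*, a somatostatin transcript, as their leading hormone message. They were found among GFP-positive islet cells of zebrafish larvae sequenced 1 cell at a time. In the tables of all 576 sequenced cells, 444 passed a filter of 500 or more detected genes and no more than 10% of counts on mitochondrial genes. In each of these cells the hormone with most counts was taken among the somatostatin genes *sst1.1*, *sst1.2* and *sst2*, the glucagon genes *gcga* and *gcgb*, and *ins*, *ghrl* and *gip*, and it was called the leading hormone where its share of all counts reached 1%. By this rule 88 of the 444 cells were sst1.1-led, 36 of 156 control cells and 52 of 288 *gcgr*-/- cells. The cells were therefore chosen by their *sst1.1* values, and those values are a description here.

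The control sample came from wild type larvae carrying *Tg(gcga:GFP)*, in which the promoter of the glucagon gene *gcga* drives GFP. The *gcgr*-/- sample carried the same transgene and lacked both zebrafish glucagon receptor genes, *gcgra* and *gcgrb*. Larvae of both samples were 7 days post fertilization (dpf), their islets were picked by hand, and GFP-positive cells were sorted into plates. GEO's labels call every sorted cell an α cell, so the sst1.1-led cells passed a sort meant for another cell type. Each genotype is 1 sample, and the cell names do not say from which larva a cell came.

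Somatostatin is the peptide by which islet δ cells restrain insulin and glucagon release from their neighbours. Zebrafish have several somatostatin genes, and *sst1.1*, *sst1.2* and *sst2* are each transcribed in the pancreas. In mouse, the homeodomain factor Hhex is required for δ cells, whereas Pdx1 works in both β and δ cells. Glucokinase, encoded by *gck*, is the glucose-phosphorylating enzyme by which β cells sense glucose.

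Summed over cells, the sst1.1-led group held 1283207 counts in control and 1505778 in *gcgr*-/-. Counts per cell ran from 6961 to 162322 in control, with a median of 28086.5, and from 2678 to 95487 in *gcgr*-/-, with a median of 19188. Median detected genes were 946 and 927.5. GEO's labels name no plates or libraries. The prefixes of the cell names were taken here to mark 24 libraries on 6 plates, A and B control and C to F *gcgr*-/-, and every statement on plates rests on that reading. By it 0 plates held both samples, so genotype and library preparation cannot be told apart. Sst1.1-led cells came from 8 of 8 control and 15 of 16 *gcgr*-/- libraries, with 12 to 19 cells on each plate. All 48 well barcodes were used in more than 1 library, and 0 cells had the same counts as another cell. With 1 sample per genotype no test was possible and no p-value is given. Levels are CPM, counts scaled to a total of 1000000, of counts summed over a cell group, and bracketed ranges are 95% exact intervals that cover counting error only, since reads may be PCR copies. A gene was assessed where the higher group had at least 100 CPM and a count in at least 25% of its cells. It was called where summed CPM and the mean of per-cell CPM both differed by at least 2-fold in the same direction.

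The share of sst1.1-led cells was 23.1% (16.7 to 30.5%) in control and 18.1% (13.8 to 23.0%) in *gcgr*-/-, which describes the sorted cells and not islets. *sst1.1* took 1.01% of counts in the lowest control cell, 15.4% in the median and 36.2% in the highest. The shares in *gcgr*-/- were 1.20%, 8.36% and 29.8%. The ranges overlapped almost wholly, but the rule sets their lower end. The quartiles were 10.4% and 27.5% in control and 5.43% and 13.7% in *gcgr*-/-. A share of 10% was reached by 27 of 36 control and 19 of 52 *gcgr*-/- cells. Just inside the limit lay a control cell at 1.01%, and just outside lay control cells at 0.9996% and 0.686%. The nearest excluded *gcgr*-/- cell had 0.251%. In all, 11 control and 2 *gcgr*-/- cells lay outside in this way, with *sst1.1* as the top hormone at under 1% of counts.

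The other hormones were low in most of these cells. *sst1.2*, the paralogous somatostatin, had a median share of 0.292% in control and 0.260% in *gcgr*-/- sst1.1-led cells, and it reached 1% in 4 of 36 and 13 of 52 cells. *sst2* had medians of 0.00547% and 0.00298%. *gcga*, whose promoter drives the GFP that was sorted for, was a median of 0.0175% of counts in control and 0.0488% in *gcgr*-/- cells, and it reached 1% in 0 and 2 cells. *arxa*, the α cell transcription factor, had 0 counts over the control sst1.1-led cells and 8 over the *gcgr*-/- cells.

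**Figure D1:**
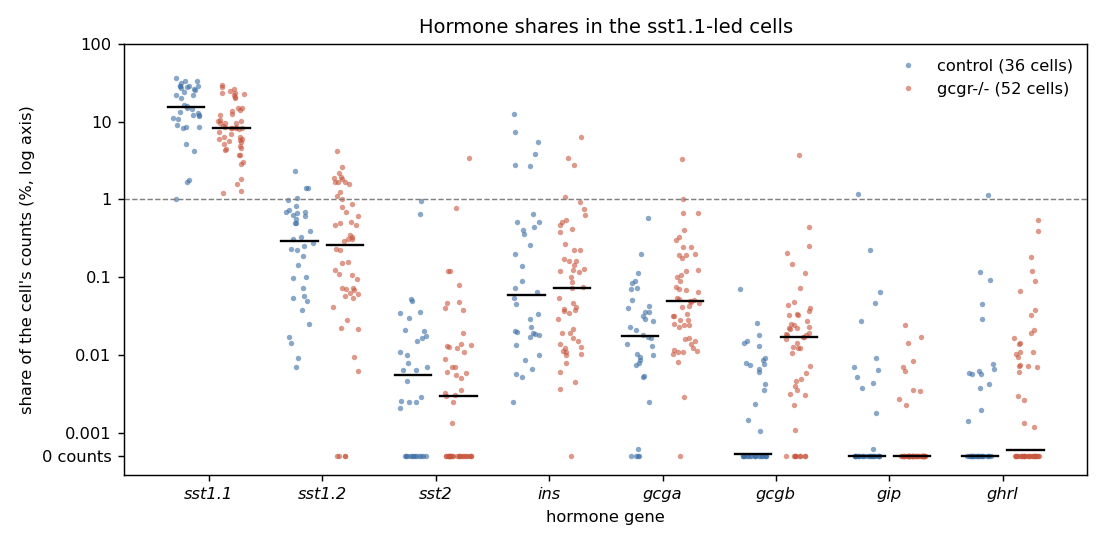
Share of each cell's counts on 8 hormone genes (log axis, %) in the 36 control and 52 *gcgr*-/- sst1.1-led cells. Points are cells, bars are medians and the dashed line is the 1% limit of the rule. *sst1.1* medians are 15.4% and 8.36%, and every other hormone has a median under 1%.

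*ins* reached 1% of counts in 6 control and 4 *gcgr*-/- sst1.1-led cells, with a highest value of 12.7% in control and 6.36% in *gcgr*-/-. The 6 control cells had a median of 1592.5 detected genes, against 880.5 in the other 30. The 4 *gcgr*-/- cells had a median of 935 genes and the other 48 had 926.5. No doublet caller was run, and the part of mixed wells in these cells was not tested. The authors' table without potential β and δ cells keeps 29 of 36 control and 44 of 52 *gcgr*-/- sst1.1-led cells. Of those with *ins* at 1% or more, it keeps 0 of 6 and 1 of 4.

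The ratio of *sst2* to *sst1.2* rests on hormones that the rule used and is given as a description. In sst1.2-led cells *sst2* was at a median of 5.55% of the *sst1.2* count in control and 10.0% in *gcgr*-/-. It exceeded 10% of the *sst1.2* count in 13 and 15 of 29 cells. Among sst1.1-led cells with at least 50 *sst1.2* counts, the medians were 1.46% over 20 control cells and 0.443% over 28 *gcgr*-/- cells, and 1 and 4 cells exceeded 10%.

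Among the δ markers other than *sst1.1*, the sst1.1-led cells shared *hhex* with sst1.2-led cells and shared *pdx1* with ins-led cells. *bdnf*, the neurotrophin gene, had a higher summed level in sst1.1-led cells than in both others. The lists of markers were drawn up with earlier results of these cells known.

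*hhex* was detected in 26 of 36 control and 38 of 52 *gcgr*-/- sst1.1-led cells, 72.2% and 73.1%. Its lowest, median and highest cells were at 0, 74.9 and 1724 CPM in control and 0, 156 and 1392 CPM in *gcgr*-/-. In sst1.2-led cells the share with a count was 82.8% in control and 79.3% in *gcgr*-/-, and in ins-led cells it was 7.32% and 14.8%. Over the 6 *gcgr*-/- ins-led cells with *sst1.1* at 1% or more *hhex* was at 240.2 CPM, against 5.51 CPM over the other 48, and in control the values were 24.4 CPM over 3 cells and 8.74 CPM over 38. When each cell was thinned to 5000 counts, the share in sst1.1-led cells was 36.1% and 60.8%, in sst1.2-led cells 64.3% and 37.9%, and in ins-led cells 4.88% and 5.66%. Both somatostatin groups thus stood above ins-led cells, but their own order was not steady. Summed *hhex* was 4.52-fold (3.78 to 5.42) lower in sst1.1-led than sst1.2-led control cells, at 154 against 694 CPM, and the log2 ratio of -2.18 became -0.68 without plate A, -1.26 without cells holding a second hormone and -1.50 among cells the authors kept, with no call in any of them. Against ins-led cells *hhex* was 12.9-fold (7.87 to 22.6) higher in control, not called without plate B at a log2 ratio of 2.27, and 5.62-fold (4.43 to 7.21) higher in *gcgr*-/-. Against sst1.2-led cells the *gcgr*-/- log2 ratio was 0.33, at 245 and 195 CPM, but it was -1.81 and called lower without cells holding a second hormone. That setting also removes the sst1.2-led cells with *sst2* at 1% of counts or more, 13 in control and 16 in *gcgr*-/-.

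*pdx1* was detected in 80.6% of control and 73.1% of *gcgr*-/- sst1.1-led cells. Single cells ran through 0, 255 and 1580.2 CPM (lowest, median, highest) in control and 0, 113 and 1379 CPM in *gcgr*-/-. Only 3 of 29 control and 5 of 29 *gcgr*-/- sst1.2-led cells had any count. Summed *pdx1* was 23.4-fold (10.6 to 64.2) higher than in sst1.2-led cells in control, at 289 against 12.4 CPM, and 23.4-fold (14.2 to 41.3) higher in *gcgr*-/-, at 279.6 against 12.0 CPM. It was higher on 6 of 6 plates. Ins-led cells had *pdx1* at 302 and 181 CPM, log2 ratios of -0.06 and 0.62 for sst1.1-led over ins-led cells, neither past 2-fold.

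*bdnf* was detected in 17 of 36 control and 40 of 52 *gcgr*-/- sst1.1-led cells. The lowest, median and highest cells were at 0, 0 and 2618 CPM in control and 0, 704 and 4299 CPM in *gcgr*-/-. Many control cells therefore had none, while most *gcgr*-/- cells had some. The share with a count was 6.90% and 20.7% in sst1.2-led cells and 7.32% and 16.7% in ins-led cells. At 5000 counts per cell these shares were 36.1% and 70.6% in sst1.1-led cells and at most 13.2% in the other groups. Summed *bdnf* was 501 CPM in control sst1.1-led cells against 4.12 CPM (2 counts) in sst1.2-led cells, a ratio of 122-fold (33.5 to 1007). In *gcgr*-/- it was 1128 against 21.7 CPM, a ratio of 52.0-fold (36.1 to 77.9). Against ins-led cells *bdnf* was 39.8-fold (25 to 67.6) higher in control and 5.10-fold (4.59 to 5.69) higher in *gcgr*-/-.

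*gck* was present in all 3 groups, with a count in 83.3% and 84.6% of sst1.1-led cells. Its cells ran through 0, 267 and 1522 CPM in control and 0, 350.5 and 2998 CPM in *gcgr*-/-. The summed level was 2.41-fold (1.91 to 3.06) and 2.44-fold (2.15 to 2.77) that of sst1.2-led cells in control and *gcgr*-/-. The higher level was found on 6 of 6 plates, but the mean of per-cell CPM had log2 ratios of 0.97 and 0.80, under 2-fold, and *gck* was not called. With the 10% limit it was called in both samples, at 1.31 and 1.40. Against ins-led cells the log2 ratios were 0.46 and 0.02. *slc2a2*, which encodes a glucose transporter, lay under the 100 CPM limit, at 89.6 and 35.2 CPM in sst1.1-led, 10.3 and 2.99 in sst1.2-led and 37.0 and 8.20 CPM in ins-led cells of control and *gcgr*-/-.

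**Figure D2:**
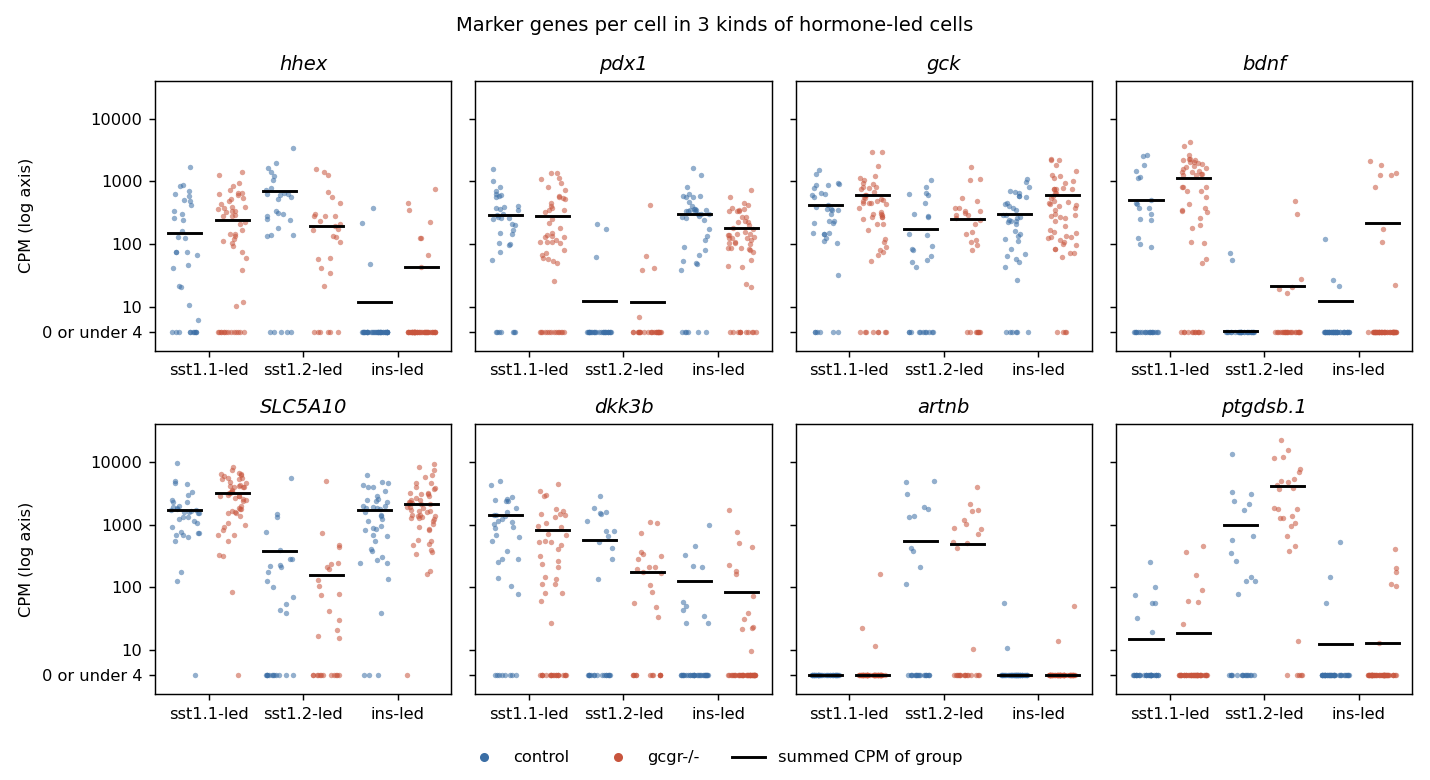
CPM per cell (log axis) of 8 genes in sst1.1-led, sst1.2-led and ins-led cells of control and *gcgr*-/-. Points are cells, those at 0 or under 4 CPM are drawn at the bottom, and black bars are summed CPM. *pdx1* and *SLC5A10* are high in sst1.1-led and ins-led cells, *hhex* in both somatostatin groups and *bdnf* mainly in sst1.1-led cells. Summed *dkk3b* is highest in sst1.1-led cells, but many sst1.2-led cells have counts too. Summed *artnb* and *ptgdsb.1* are highest in sst1.2-led cells, but many of those cells have no count.

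Counted within the same cell, *hhex* and *pdx1* were found together in 23 of 36 control (63.9%, 46.2 to 79.2%) and 29 of 52 *gcgr*-/- (55.8%, 41.3 to 69.5%) sst1.1-led cells. The pair was found in 3 of 29 and 4 of 29 sst1.2-led cells and in 3 of 41 and 5 of 54 ins-led cells. After thinning it was found in 27.8% and 37.3% of sst1.1-led cells and in 4.88% and 3.77% of ins-led cells. In sst1.2-led cells it was then found in 3.57% and in 0 of 29, which allows up to 11.9%. All of *hhex*, *pdx1*, *gck* and *bdnf* were found in 11 control and 22 *gcgr*-/- sst1.1-led cells. In the other groups 0 to 3 cells had all 4. After thinning all 4 were found in 2 of 36 control (5.56%, 0.68 to 18.7%) and 11 of 51 *gcgr*-/- (21.6%, 11.3 to 35.3%) sst1.1-led cells. They were then found in 0 of 28 and 0 of 29 sst1.2-led cells, which allows up to 12.3% and 11.9%. Ins-led cells had 0 of 41, which allows up to 8.60%, and 2 of 53. Of the 3 control and 6 *gcgr*-/- ins-led cells that had *sst1.1* at 1% or more, 1 and 4 had a *bdnf* count, at 52.3 and 711 CPM summed. Of the other 38 and 48 ins-led cells, 2 and 5 had one, at 2.62 and 126 CPM summed.

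The question of what sets the sst1.1-led cells apart from the other somatostatin cells was asked within each sample, where both groups share plates and libraries. In control, 154 of 735 assessed genes were called higher (21.0%) and 99 lower (13.5%). In *gcgr*-/-, 175 of 908 were called higher (19.3%) and 96 lower (10.6%). Of 570 genes assessed in both samples, 30 were called higher in both (5.26%) and 22 lower in both (3.86%), counts that include the hormones of the rule. A further 12 genes were called in opposite directions in control and *gcgr*-/-. Higher on 6 of 6 plates were 51 genes (8.95%), and lower on 6 of 6 were 29 (5.09%). The median log2 ratio of all assessed genes was 0.23 in control and 0.24 in *gcgr*-/-. With the 8 hormones left out of the totals these medians were 0.43 and -0.08, and the called genes in *gcgr*-/- were 48.7% higher in place of 64.6%.

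After *bdnf* and *pdx1*, the genes with the largest ratios in both samples included *SLC5A10*, of the sodium-coupled sugar transporter family. Its lowest, median and highest sst1.1-led cells were at 0, 1579.9 and 9674 CPM in control and 0, 2892 and 8241 CPM in *gcgr*-/-, and 97.2% and 98.1% of the cells had a count. The level was 4.45-fold (3.83 to 5.20) higher than in sst1.2-led cells in control and 19.9-fold (17.4 to 23.0) higher in *gcgr*-/-, on 6 of 6 plates. Ins-led cells had 1741 and 2154 CPM beside 1706 and 3173 CPM in sst1.1-led cells, within 2-fold.

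*dkk3b*, a secreted member of the Dickkopf family, was called in both samples too, though less steadily. Sst1.1-led cells ran through 0, 774 and 4900.3 CPM in control and 0, 126 and 4512 CPM in *gcgr*-/-. The summed level was 2.51-fold (2.21 to 2.86) higher than in sst1.2-led cells in control and 4.59-fold (3.99 to 5.30) higher in *gcgr*-/-. The control log2 ratio of 1.33 was 0.98 without cells holding a second hormone and 0.78 among kept cells, with no call. The share of cells with a *dkk3b* count was 77.8% against 44.8% of sst1.2-led cells in control, but 61.5% against 58.6% in *gcgr*-/-, and 47.1% against 48.3% after thinning. Against ins-led cells the ratios were 11.4-fold (9.77 to 13.4) and 9.83-fold (8.34 to 11.7).

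*pnoca*, the precursor of the opioid-like peptide nociceptin and a member of the α cell list too, was at 443 and 290.2 CPM in sst1.1-led cells. A count was found in 30.6% of control and 55.8% of *gcgr*-/- sst1.1-led cells, beside 24.1% and 65.5% of sst1.2-led cells. The log2 ratios of summed *pnoca* to sst1.2-led cells were 3.50 in control and 2.45 in *gcgr*-/-. Single plates decided these values, as the control value was 0.18 without plate A and the *gcgr*-/- value 1.38 without plate D, and neither was then called. Against ins-led cells *pnoca* was at 2.80 and 1.47, the latter 0.42 without plate D and 0.87 without its highest cell, neither called. The control call against ins-led cells was lost without plate A at 3.10 and without plate B at 2.70. The other genes named by rank were *st7*, the proteasome subunit gene *psmb3*, the protocadherin gene *pcdh10a*, *CABZ01073265.1*, *rrbp1a*, which encodes a ribosome-binding protein of the endoplasmic reticulum (ER), and *pltp*, which encodes a phospholipid transfer protein. Their log2 ratios were 2.89, 2.37, 2.35, 2.09, 3.81 and 2.97 in control and 3.95, 2.64, 4.62, 2.44, 2.03 and 1.96 in *gcgr*-/-. *st7*, *psmb3*, *pcdh10a* and *CABZ01073265.1* were higher on 6 of 6 plates. *pltp* in *gcgr*-/- had a log2 ratio of 0.88 without its highest cell and 0.80 without plate C, and 1 cell held 49.8% of the *gcgr*-/- *pcdh10a* counts. In control the calls were lost without plate B for *pcdh10a* at 1.33, *psmb3* at 1.46 and *CABZ01073265.1* at 1.77, and without plate A for *rrbp1a* at 2.02. In *gcgr*-/- the call of *psmb3* was lost without plate C, at 2.68. With a limit of 10% for the leading hormone *psmb3* was at 1.45 and 0.96 and *rrbp1a* in *gcgr*-/- at 1.11. Without cells holding a second hormone *pcdh10a* and *CABZ01073265.1* in control were at 1.42 and 0.61 and *pltp* in *gcgr*-/- at 0.55. Among kept cells *pcdh10a* in control was at 1.24, *CABZ01073265.1* at 1.31 and 0.84, and *pltp* in *gcgr*-/- at 1.83. None of these values was called.

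The genes with the largest ratios in the other direction were chosen by the same rule. *artnb*, which encodes a ligand of the GDNF family, had 0 counts over all 36 control sst1.1-led cells and 264 counts (544 CPM) over 29 sst1.2-led cells. Against a floor of 3 counts over the group this is at least 233-fold lower. The *gcgr*-/- cells had 4 counts against 653, 184-fold (71.4 to 676) lower. Of the sst1.2-led cells, 11 of 29 in control and 13 of 29 in *gcgr*-/- had an *artnb* count, so most had none. Without plate A the control *artnb* log2 ratio was -5.72 in place of -7.86 and not called. Without cells holding a second hormone *artnb* was at -6.04 in control and -6.38 in *gcgr*-/-, and among kept *gcgr*-/- cells at -6.96, again with no call.

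*ptgdsb.1*, of the prostaglandin D synthase family, was at 14.8 CPM in control sst1.1-led cells and 1003 CPM in sst1.2-led cells, 67.7-fold (42.9 to 114) lower. That control log2 ratio of -6.08 was -1.50 and not called without cells holding a second hormone. In *gcgr*-/- *ptgdsb.1* was at 18.6 against 4122 CPM, 222-fold (153 to 334) lower. A count was found in 14 of 29 control and 24 of 29 *gcgr*-/- sst1.2-led cells. One control sst1.2-led cell was at 13414 CPM, beside the 1003 CPM of the group. *pdyn*, which encodes the opioid precursor prodynorphin, was 12.3-fold (10.2 to 15.1) lower in control and 12.0-fold (9.52 to 15.2) lower in *gcgr*-/-, at 98.2 against 1211 CPM and 54.5 against 651 CPM. The other genes given by rank were *nrcama*, a neuronal adhesion molecule gene, the water channel gene *aqp4*, *olfm2a*, *zgc:195023*, *lrrc39* and *carhsp1*. Their log2 ratios ran from -6.76 to -5.14 in control and from -7.03 to -3.56 in *gcgr*-/-, where *aqp4* had 0 counts, was set at the floor and lost its call without plate D at -5.09. The lowest control value, that of *nrcama*, was -1.38 and not called among kept cells, and *aqp4* in control was then at -4.87, also with no call. The 9 lower genes named here were lower on 6 of 6 plates. Ins-led cells were also low for *artnb* and *ptgdsb.1*, at 1.40 and 12.6 CPM in control and 1.03 and 12.8 CPM in *gcgr*-/-.

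**Figure D3:**
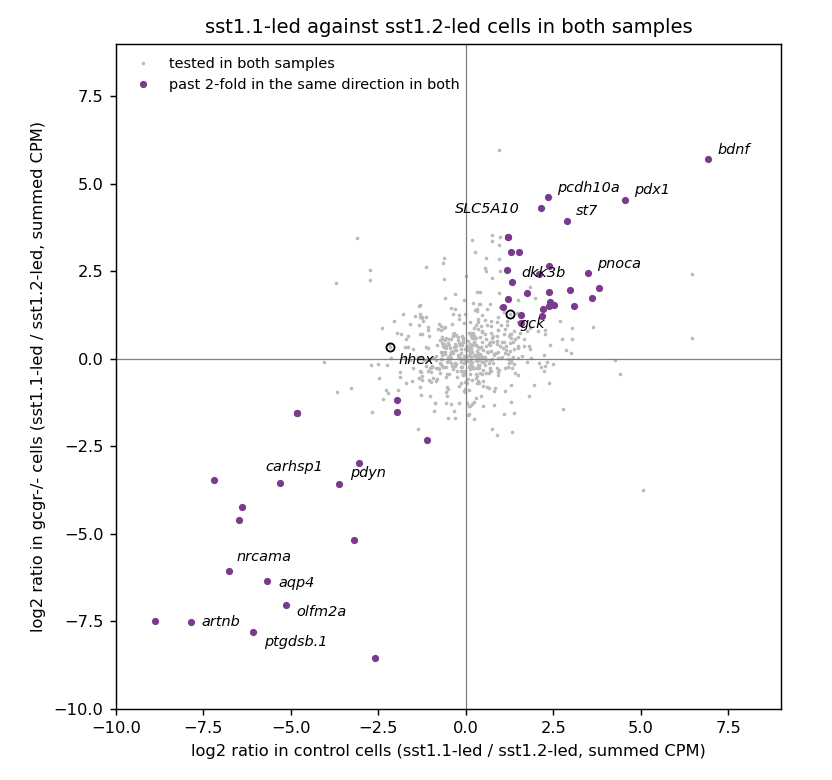
Log2 ratio of summed CPM, sst1.1-led over sst1.2-led cells, in control (x axis) and *gcgr*-/- (y axis) for genes assessed in both samples, without the 8 hormones of the rule. Purple points passed 2-fold in the same direction in both samples. *bdnf* (6.93 and 5.70) and *pdx1* (4.55 and 4.55) lie at the upper right, *artnb* and *ptgdsb.1* at the lower left, and *hhex* and *gck* are ringed.

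The gene lists are read against the 5.26% of all assessed genes called higher in both samples and the 3.86% called lower, under which short lists would often have no called gene. Of the 5 islet transcription factors assessed in both, 1 (*pdx1*) was called higher and 0 lower. Of 16 genes for ER folding and the unfolded protein response, 2 were called higher in both, *calr3b*, a calreticulin gene, and *ssr4*, a translocon-associated gene. Their log2 ratios were 2.53 and 1.05 in control and 1.54 and 1.48 in *gcgr*-/-. *calr3b* in *gcgr*-/- was at 0.85 without its highest cell, and *ssr4* in control at 0.79. Without plate B *ssr4* in control was at 0.22, without plate C in *gcgr*-/- at 0.92, and *calr3b* in control without plate A at 1.50, none of them called. The log2 ratios of *calr3b* were 2.87 and 0.09 without cells holding a second hormone, with no call, and with the 10% limit *ssr4* was at 0.20 and 0.66, also not called. Of 2 ion channel and pump genes, *atp1a1a.1*, a sodium pump subunit gene, was higher in both, 2.31-fold (1.83 to 2.93) in control and 3.27-fold (2.96 to 3.61) in *gcgr*-/-. Without plate B the control log2 ratio was 0.80. Without cells holding a second hormone *atp1a1a.1* was at 0.06 in control and 0.85 in *gcgr*-/-, and among kept *gcgr*-/- cells at 0.94, with no call. Called in both were 0 of 79 cytosolic ribosome genes, 0 of 43 oxidative phosphorylation genes, 0 of 11 genes of the mitochondrial genome, 0 of 15 cytosolic chaperones, 0 of 5 glycolysis genes, 0 of 5 immediate-early genes, 0 of 5 ferritin and metal storage genes and 0 of 2 genes each for granules and vesicle fusion.

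A comparison with ins-led cells was added after the data were seen. Of 573 genes assessed in both samples, 15 were called higher in sst1.1-led cells in both (2.62%) and 4 lower (0.698%). These counts include hormones of the rule, by which the 2 cell groups were chosen. The 15 were *sst1.1*, *sst1.2*, *bdnf*, *hhex*, *dkk3b*, *rims2a*, *pnoca*, *pyyb*, *cfb*, *srd5a2b*, *usp36*, *zgc:92818*, *zgc:162939*, *rrbp1a* and *atp6v0cb*, and the 4 were *ins*, *ndufa4l2a*, *anxa5a* and *grn1*. *rims2a*, which encodes a scaffold of vesicle release sites, had a count in 41.7% and 76.9% of sst1.1-led cells, 3.45% and 17.2% of sst1.2-led cells and 24.4% and 38.9% of ins-led cells. The control log2 ratio of *rims2a* to sst1.2-led cells was 0.95 and not called. It was 4.67 with the 10% limit and 4.91 without plate B, each then called. The *rims2a* level was 3.39-fold (2.76 to 4.19) and 4.42-fold (3.99 to 4.91) higher than in ins-led cells of control and *gcgr*-/-. The control log2 ratio to ins-led cells was 0.54 without plate A. *cfb*, the complement factor B gene, was 25.9-fold (19.7 to 34.8) and 10.5-fold (8.21 to 13.5) higher. It was within 2-fold of sst1.2-led cells, with log2 ratios of -0.08 and 0.48. Without plate D the *gcgr*-/- call against ins-led cells was lost, at 3.38.

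The comparison of genotypes asks how these cells looked in larvae without glucagon receptors. *gcgra* had 12 counts, all in 1 cell, over the control sst1.1-led cells and 0 counts over the *gcgr*-/- cells, and *gcgrb* had 0 in both. Of 911 assessed genes, 247 were called higher in *gcgr*-/- sst1.1-led cells (27.1%) and 92 lower (10.1%). The counts of called genes in each list below are read against these shares. In 192 genes all 4 *gcgr*-/- plates lay above both control plates (21.1%), and in 79 all 4 lay below (8.67%). The median log2 ratio over all assessed genes was 0.37, or 0.14 with the 8 hormones left out of the totals, and ratios should be read against that shift. In 16 of the 247 and 11 of the 92 called genes more than 50% of the counts of the higher group came from 1 cell. Of the δ markers, *bdnf* rose 2.25-fold (2.05 to 2.47), and its 4 *gcgr*-/- plates, at 1036 to 1197 CPM, lay above the control plates at 466 to 522 CPM. Summed *bdnf* was higher in *gcgr*-/- in the other groups too, from 4.12 to 21.7 CPM in sst1.2-led and from 12.6 to 220.9 CPM in ins-led cells. Among sst1.1-led cells kept by the authors the log2 ratio of *bdnf* was 0.60 in place of 1.17. With totals without the 8 hormones it was 0.99, and neither value was called. *hhex*, *pdx1* and *gck* had log2 ratios of 0.67, -0.05 and 0.55 and were not called, and their plates overlapped.

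Chaperone messages went both ways in *gcgr*-/- sst1.1-led cells, with HSP70 genes of the inducible kind lower and several other chaperone genes higher. *hsp70.1*, an inducible HSP70 gene, was at 287, 18235 and 62455 CPM in the lowest, median and highest control cells and 0, 175 and 21079 CPM in *gcgr*-/- cells. It fell from 18341 to 1165 CPM, 15.7-fold (15.0 to 16.5) lower. Both control plates, at 17839.9 to 19184 CPM, lay above the 4 *gcgr*-/- plates, at 339.9 to 1909 CPM, although the highest *gcgr*-/- cells reached control levels. *hsp70l*, *hsp70.2* and *hsp70.3* fell as well, from 42343, 25142 and 8974 CPM to 7902, 3961 and 1997 CPM. Reads of such near-identical copies may be shared, so the split between these genes is uncertain. The ubiquitin genes *UBB* and *ubb* and the co-chaperone gene *dnajb1b* fell as well, with log2 ratios of -3.52, -1.75 and -1.95, and with the 10% limit *ubb* was at -1.19 and not called.

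In the other direction *hspa8*, the gene of the constitutive chaperone HSC70, was at 0, 383 and 1158 CPM per control cell and 131, 1118 and 4156 CPM per *gcgr*-/- cell. It rose 2.50-fold (2.27 to 2.76), from 424 to 1059.9 CPM, with control plates at 395 to 441 and *gcgr*-/- plates at 955 to 1106 CPM. *hspa4a* rose 4.13-fold (3.71 to 4.60), *hsph1* 4.63-fold (3.75 to 5.77), the mitochondrial chaperonin gene *hspd1* 5.32-fold (4.05 to 7.09), *hsp90ab1* 2.90-fold (2.72 to 3.10) and *hspb1* 2.89-fold (2.74 to 3.05). *hspe1* was called as well (log2 1.1, or 0.97 without its highest cell and 0.71 without plate E). Without plate A *hsph1* was at 1.47 on the log2 scale in place of 2.21 and not called, and with the 10% limit *hspa4a* was at 1.48 and not called. *hsp90aa1.1* was called higher at 1.99, but 1 cell held 79.2% of its *gcgr*-/- counts and the value was -0.24 without it. In all, 8 of 17 assessed chaperone genes were higher and 7 lower, beside 27.1% and 10.1% of all assessed genes. The list summed to 133856 CPM in control and 49273 CPM in *gcgr*-/- sst1.1-led cells. The same sums were 187819 and 51041 CPM in sst1.2-led cells and 151590 and 77377 CPM in ins-led cells. Called there were 2 of 16 higher and 7 lower in sst1.2-led cells, and 1 of 16 higher and 6 lower in ins-led cells. The shares of all genes called in those groups are not given here, so these counts are not set against the 8 of 17. The list's median log2 ratio was -0.24 in sst1.1-led, -0.70 in sst1.2-led and -0.35 in ins-led cells.

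**Figure D4:**
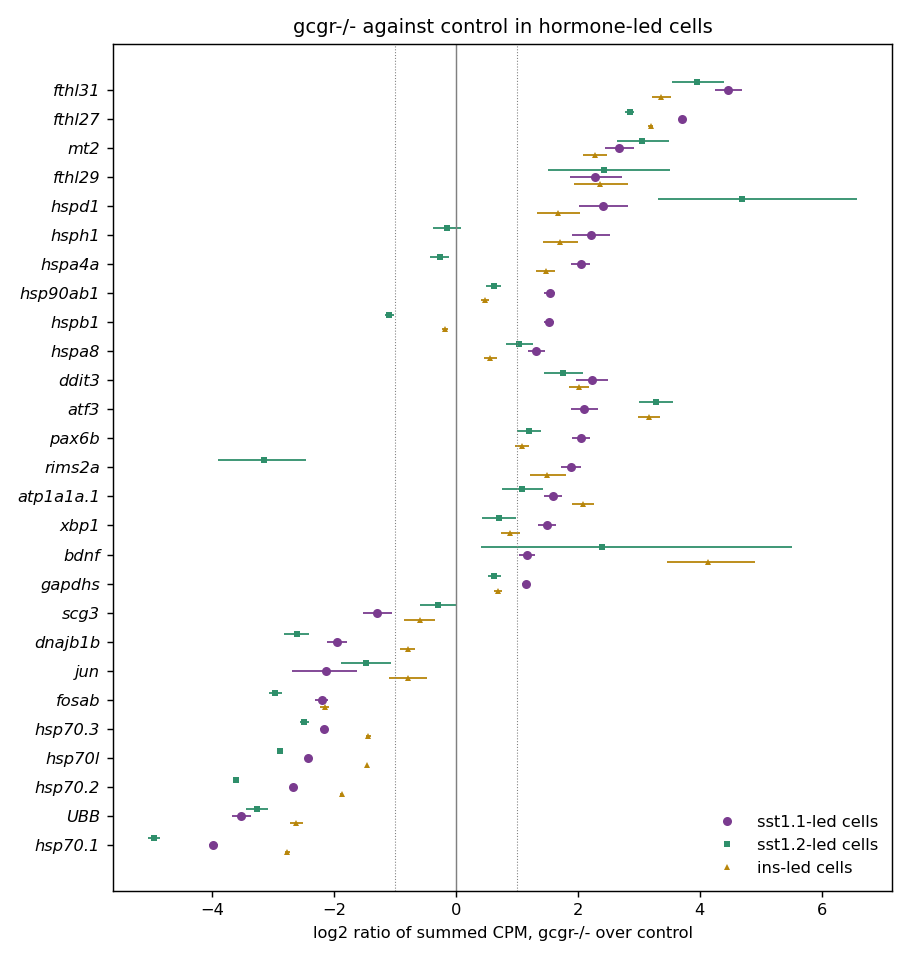
Log2 ratio of summed CPM, *gcgr*-/- over control, for 27 genes in sst1.1-led (circles), sst1.2-led (squares) and ins-led (triangles) cells. Lines are 95% intervals for counting error only and dotted lines mark 2-fold. In sst1.1-led cells *fthl31* (4.46) and *fthl27* (3.71) are at the high end and *hsp70.1* (-3.98) at the low end.

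Ferritin messages were much higher in *gcgr*-/- sst1.1-led cells. *fthl27*, a ferritin heavy chain-like gene for iron storage, was at 0, 1642 and 41032 CPM in the lowest, median and highest control cells and 0, 24447 and 153072 CPM in *gcgr*-/- cells. Its summed level rose 13.1-fold (12.7 to 13.6), from 2676 to 35102 CPM. Control plates were at 2403 to 3136 CPM and *gcgr*-/- plates at 21317 to 39994 CPM, so plates of the genotypes did not overlap. *fthl31* rose 22.0-fold (19.0 to 25.8), *fthl29* 4.88-fold (3.64 to 6.64) and *mt2*, a metallothionein gene, 6.41-fold (5.43 to 7.60). The list had 4 of 6 assessed genes higher and 0 lower, beside 27.1% and 10.1% of all assessed genes. The list summed to 3589 and 39934 CPM. In the other cells the sum went from 4270 to 27135 CPM in sst1.2-led and from 4285 to 35117 CPM in ins-led cells. The fthl genes are close copies, so counts may be split between them.

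**Figure D5:**
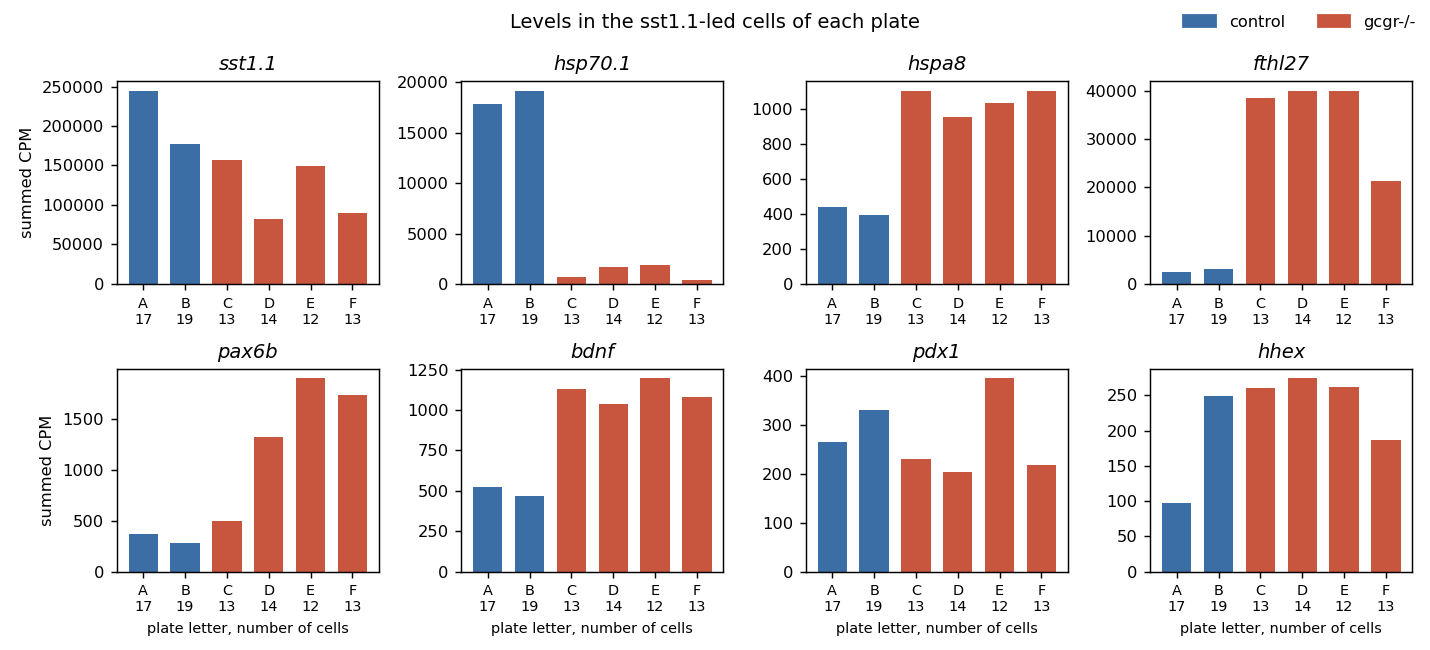
Summed CPM of 8 genes in the sst1.1-led cells of each plate, control in blue (A and B) and *gcgr*-/- in red (C to F), with the number of cells under each letter. *fthl27*, *hspa8*, *pax6b* and *bdnf* are higher on all 4 *gcgr*-/- plates, *hsp70.1* is lower on all 4, and *pdx1* and *hhex* overlap. Summed *sst1.1*, by which the cells were chosen, is shown as a description. It is lower on all 4, but its log2 ratio of -0.78 was not called. Its per-cell median share was 12.37% on control plate B and 12.41% on *gcgr*-/- plate C.

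Of 17 assessed genes for ER folding and the unfolded protein response 4 were called higher and 0 lower, near the share of all genes called higher (27.1%). The list's median log2 ratio was 0.39, against 0.37 over all assessed genes. *xbp1*, a transcription factor of the unfolded protein response, rose 2.81-fold (2.53 to 3.11), with cells at 0, 240.1 and 1818 CPM in control and 0, 576 and 8884 CPM in *gcgr*-/-. With the 10% limit *xbp1* was at 0.90 on the log2 scale and not called. *ddit3*, the CHOP gene, rose 4.68-fold (3.91 to 5.63) and *hyou1*, an ER chaperone gene, 3.26-fold (2.82 to 3.78). The 4th, *calr3b*, had a log2 ratio of 1.63, or 0.94 without its highest cell and 0.91 without plate C. The immediate-early list had 2 of 10 higher and 3 lower, beside 27.1% and 10.1% of all assessed genes. *atf3* rose 4.29-fold (3.70 to 5.01) and *klf6a* 3.96-fold (3.12 to 5.09), while *fosab* fell from 2817 to 613 CPM, *jun* was 4.39-fold (3.07 to 6.43) lower and *dusp1* was at -1.45, or -0.90 without its highest cell and -0.96 without plate E. Without plate A *atf3* had a log2 ratio of 1.72 in place of 2.10 and was not called. With the 10% limit *klf6a* was at 0.58 in place of 1.99 and *jun* at -1.94, and among kept cells *jun* was at -1.81, none of them called.

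The next lists are read beside the 27.1% of all assessed genes called higher and the 10.1% called lower. Among islet genes, 1 of 6 assessed transcription factors was called. This was *pax6b*, a paired homeodomain factor of endocrine cells, which rose 4.14-fold (3.73 to 4.60). Control cells were at 0, 149 and 2339 CPM and *gcgr*-/- cells at 0, 884 and 5762 CPM. Its *gcgr*-/- plates spread from 492 to 1899 CPM and control plates from 284 to 365 CPM. *rims2a* rose 3.70-fold (3.30 to 4.15), 1 of 2 assessed genes of vesicle fusion, with a log2 ratio of 0.94 among cells the authors kept. The granule list had 0 of 7 higher and 2 lower, *scg3*, a secretogranin gene, 2.44-fold (2.07 to 2.89) lower and *chga*, the chromogranin A gene, at -1.1. Without plate A *scg3* was at -0.88, with the 10% limit at -0.73, and without plate B *chga* was at -0.65. The ion channel and pump list had 2 of 3 higher. *atp1a1a.1* rose 3.02-fold (2.74 to 3.33), and *atp2b1a*, a calcium pump gene, had a log2 ratio of 1.09 that was 0.50 without plate B. In the glycolysis list 3 of 7 were higher. *gapdhs* rose 2.22-fold (2.11 to 2.32), from 1931 to 4278 CPM, but its log2 ratio of 1.15 was 0.98 without cells holding a second hormone and 0.97 with totals without the hormones. *tpi1b* and *pgam1a*, at 1.15 and 1.1, were at 0.91 and 0.67 without their highest cells, and at 0.82 without plate E and 0.88 without plate C.

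Of all assessed genes 27.1% were called higher and 10.1% lower. In the peptide hormone list 4 of 11 assessed genes were higher and 2 lower, the rule's hormones among them. Beside *bdnf* these were *gcga*, at 368 and 1639 CPM, *gcgb*, at 52.2 and 1047 CPM, and *pyyb*, a peptide YY gene, at 189 and 4920.4 CPM. One *gcgr*-/- cell held 74.3% of the *gcgb* counts and one held 87.0% of the *pyyb* counts. *gcga* in ins-led cells went from 1004 to 3207 CPM and in sst1.2-led cells from 175 to 1629.7 CPM. Without cells holding a second hormone the *gcga* log2 ratio in sst1.1-led cells was 1.29 in place of 2.16 and not called. Summed *gcga* levels were thus higher in *gcgr*-/- in each of the 3 groups, and the part of free RNA in them was not tested. *ins* fell from 16075 to 4256 CPM. The log2 ratio of *ins* was -1.92, but 1.11 without cells holding a second hormone and 0.83 among cells the authors kept. *gip* was at -3.50, or -0.22 without plate B.

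Genes outside the lists were named by the size of their ratio. The highest was *si:dkey-4p15.3*, with 5 counts in control and a level of 1556 CPM in *gcgr*-/-, where 40 of 52 cells had a count, a ratio of 399-fold (171 to 1231). *adrb3a*, a β-adrenergic receptor gene, had 0 counts in control cells, whereas 13 *gcgr*-/- sst1.1-led cells held 257, at least 73.0-fold higher against a floor of 3 counts over the group. Sst1.2-led and ins-led *gcgr*-/- cells had 1 and 10 *adrb3a* counts, at 0.747 and 5.13 CPM beside 171 CPM. All 4 *gcgr*-/- plates held it, at 14.2 to 306 CPM, and without plate C or plate F too few cells had a count for a call, at log2 ratios of 6.38 and 6.26. *zgc:66313*, *bach1b*, a repressor of heme-responsive genes, *pfkfb3*, which makes an activator of glycolysis, and *bhlha15*, a transcription factor of secretory cells, also had 0 counts in control and were at least 164-fold, at least 59-fold, at least 50.6-fold and at least 50.3-fold higher. *prodha*, the proline dehydrogenase gene, *wdr43*, *cst14b.1* and *si:ch211-255i3.4* had 1 to 6 counts in control, with ratios of 104-fold (35.4 to 508), 54.8-fold (25 to 150.3), 80.1-fold (21.9 to 666) and 153-fold (27.2 to 6092). Calls were lost without plate F for *bach1b* at 5.21, *cst14b.1* at 6.1, *pfkfb3* at 4.97 and *si:ch211-255i3.4* at 7.24 on the log2 scale. Without plate D *si:ch211-255i3.4* was at 6.59, and without plate E *pfkfb3* was at 5.38 and *bhlha15* at 4.46, again with no call. With the 10% limit *bach1b*, *cst14b.1*, *pfkfb3* and *bhlha15* were at 4.18, 4.35, 5.06 and 3.85, and without cells holding a second hormone *adrb3a* was at 4.73 and *bhlha15* at 3.70, none called. Among kept cells *adrb3a*, *pfkfb3* and *bhlha15* were at 4.72, 4.88 and 4.53, with no call. After thinning to 5000 counts *prodha* was at 3.69, *bach1b* at 3.44, *si:ch211-255i3.4* at 3.30 and *cst14b.1* at 3.23. *pfkfb3* was then at 3.08 and *adrb3a* and *bhlha15* at 2.61, and none of these thinned values was called.

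Beside *hsp70.1* and *UBB*, the genes with the largest fall were low genes. *AL928650.4* went from 261 to 4 counts, 76.6-fold (29.5 to 283) lower. *nedd8*, a ubiquitin-like protein gene, went from 143 to 0 counts, at least 55.9-fold lower. *VSTM2B* was 32.9-fold (13.7 to 103) lower, *trmt112*, a methyltransferase partner gene, 25.2-fold (13.0 to 55.9), *zgc:66475* 20.2-fold (10.7 to 42.8) and *hlfa*, a PAR bZIP transcription factor gene, 10.9-fold (6.93 to 18). Without plate B the calls of *nedd8*, *trmt112* and *zgc:66475* were lost at log2 ratios of -4.84, -3.82 and -4.36, and without plate A that of *VSTM2B* at -4.46. *hlfa* was at -1.99 in place of -3.45 and *VSTM2B* at -4.39 without cells holding a second hormone, neither called. The remaining ones depended on plate A, as *sdf4*, which encodes a Golgi calcium-binding protein, went from a log2 ratio of -3.77 to -0.23 without it and *si:dkeyp-85e10.3* from -5.25 to -2.29. After thinning to 5000 counts *AL928650.4* was at -4.34, *nedd8* at -3.09, *trmt112* at -2.89 and *zgc:66475* at -5.26. *hlfa* was then at -2.50, *sdf4* at -2.34 and *si:dkeyp-85e10.3* at -4.82, and none of these thinned values was called.

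Most messages for the ribosome stayed within 2-fold, and some mitochondrial messages were lower. The shares over all assessed genes were 27.1% higher and 10.1% lower. Of 80 assessed cytosolic ribosome genes, 2 were higher and 0 lower, with a median log2 ratio of 0.11. Of 58 oxidative phosphorylation genes 2 were higher and 13 lower, with a median of -0.42 against 0.37 over all assessed genes. Of 11 genes of the mitochondrial genome 0 were higher and 2 lower, with a median of -0.45.

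Of the lists for other cells, those of β and α cells, which include hormones of the rule, had the highest sums in sst1.1-led cells. The β cell list summed to 16162 CPM in control and 4478 CPM in *gcgr*-/-, and the α cell list to 863 and 2987 CPM. No gene of the acinar, liver, immune, endothelial, red blood cell, neural, cell cycle or receptor lists reached the level to be assessed. The acinar list summed to 150.4 and 130.2 CPM in control and *gcgr*-/-, the liver list to 15.6 and 12.0 CPM and the immune list to 0 in both. The epithelial list had 1 of 2 assessed genes higher, the keratin gene *krt18a.1*, which rose 4.87-fold (4.11 to 5.81). Summed, that list went from 503 to 1772 CPM and the duct list, with 0 of 1 assessed genes called, from 115 to 462 CPM. The β cell list had *ins* alone assessed, and 2 of 3 assessed α cell genes, *gcga* and *gcgb*, were higher. *pcna*, a replication gene, was detected in 1 of 36 control and 13 of 52 *gcgr*-/- cells, at 4.68 and 73.1 CPM, under the limit to be assessed. On plates C to F it was at 210.1, 66.2, 13.6 and 2.79 CPM, so plate C stood highest.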

How the data were processed

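GFP-positive cells of both samples were sequenced as 3' single-cell libraries by a modified Smart-seq2 protocol. The deposited tables hold the authors' raw read counts per gene and cell, made with Trim Galore, STAR and featureCounts on GRCz11, with versions not given in the sources used here and no collapsing of PCR copies stated. A second pair of tables, from which the authors removed potential β and δ cells, served only to mark the cells they kept. All 24900 genes entered the totals. Counts were summed over the cells of a sample with the same leading hormone and divided by their total, giving CPM. No doublet caller was run. With 1 sample per genotype no model was fitted. Intervals (95%) are exact binomial for shares and exact conditional for ratios. Genes named beyond the fixed lists were, in each direction, the 10 called genes with the largest ratio in the genotype and the sst1.1-led against sst1.2-led comparison, without the 8 hormones, and other names were chosen after their values were seen. One gene that this rule names is not reported here. The members and lists were chosen with earlier results of these data known. Alternatives were a 10% limit for the leading hormone, cells without a second hormone, cells the authors kept, cells with at least 10000 counts, means of per-cell CPM, thinning to 5000 counts, totals without hormones, no filter on low values, 2-fold on summed counts alone, and each plate left out. Leaving out the highest cell was added after seeing the data. Python 3.11.15, NumPy 2.4.6, pandas 2.3.3, SciPy 1.17.1 and Matplotlib 3.10.9 were used.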

Additional observations from a re-analysis of the deposited data

Results flagged for a closer look

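Some genes were called in opposite directions in groups that were compared the same way. For sst1.1-led over sst1.2-led cells there were 12 such genes between control and *gcgr*-/-. Beside them, 30 genes were called higher in both samples and 22 lower in both. For *gcgr*-/- over control there were 5 such genes between sst1.1-led and sst1.2-led cells. Only some of these genes are named here. The log2 ratio of sst1.1-led over sst1.2-led cells was 5.06 in control and -3.73 in *gcgr*-/- for *fthl28*, a ferritin-like gene with close copies. It was 1.33 and -2.09 for *ndufa10*, a gene of respiratory complex I, and -1.32 and 1.20 for *atp5if1b*, an ATP synthase inhibitor gene. The control value of *fthl28* was 2.77 with the 10% limit, 3.36 without cells holding a second hormone and 2.39 without plate B. Among kept cells it was 5.80, among cells with at least 10000 counts 2.61 and after thinning 6.22. None of these *fthl28* values was called. The log2 ratio of *gcgr*-/- over control was -2.24 in sst1.1-led and 1.18 in sst1.2-led cells for *ndufa10*, and -1.31 and 1.07 for *cox5ab*, a gene of cytochrome c oxidase. With 1 sample per genotype these differences were not tested.

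Cells that did not pass the filter on genes and mitochondrial counts also held *sst1.1* as leading hormone, 13 of 36 in control and 19 of 96 in *gcgr*-/-. Their median totals were 902 and 1118 counts, and they entered no comparison.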

How the results depend on the processing

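With a limit of 10% of counts for the leading hormone the share of sst1.1-led cells was 17.3% in control and 6.60% in *gcgr*-/-. Without cells holding a second hormone it was 16.0% in control and 12.2% in *gcgr*-/-. Among cells the authors kept it was 33.0% in control and 22.3% in *gcgr*-/-. The 271 genes called between sst1.1-led and sst1.2-led cells in *gcgr*-/- became 450 without second hormones and 440 among kept cells, 49.6% and 46.8% of them higher against 64.6%. In control the split was 50.2% and 46.1% higher in those settings, and 69.0% with totals without the hormones, against 60.9%. Leaving out a control plate turned the 253 control calls into 383 to 399. With no filter on low values 4998 genes were called between genotypes, 4025 and 4975 between the somatostatin groups in control and *gcgr*-/- (43.4% and 55.2% higher), and 977 in both samples. Among called genes the direction reversed for *hsp90aa1.1* (-1.06 with the 10% limit, -0.23 without second hormones, -0.28 to 3.56 over the plates left out in turn, the lowest without plate C, -0.24 without its highest cell) and for *ins* (1.11 without second hormones, 0.83 among kept cells). Among genes not called, *hhex* in *gcgr*-/- sst1.1-led over sst1.2-led cells went from 0.33 to -1.81 without second hormones, and *pnoca* between genotypes from -0.61 to 1.3 on means of per-cell CPM and 1.72 without plate A, each then called. The cause was not tested. Of 62 named genotype calls, 42 (thinned) to 62 were kept and 60 to 62 had the same direction, across the settings that keep the filter. The comparison of kept sst1.1-led with ins-led cells was not run, since 0 control and 1 *gcgr*-/- ins-led cells were kept. No paired analysis of the genotypes was possible because each genotype is 1 sample. Depth limits genes with few counts, whose intervals span several-fold, and genotype cannot be told apart from plate.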
